A study of Mus musculus with 8 samples.

Results

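The genes that build cholesterol and fatty acids were examined in injured and intact mouse sciatic nerve of c-Jun KO and WT mice. The set holds 34 genes: 18 enzymes of the sterol pathway taken in enzyme order, 6 genes that control the pathway or carry sterol, and 10 genes of fatty acid synthesis. The genes were chosen by name for their known roles, and their probe sets were found by gene symbol. Of the 34 genes 33 had probe sets, 77 in all, and all 33 were tested among the 12094 genes that passed a filter on dim probe sets, out of 18194 genes with a named probe set. Acat2, an acetoacetyl-CoA thiolase, had none in the annotation used and was not analysed here. The filter kept 64 of the 77 probe sets and all 33 genes.

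Adult mice had 1 sciatic nerve cut at the sciatic notch, and 7 days later RNA was taken from a 10 mm piece of the distal stump and from the intact nerve of the other side. There were 4 groups with 2 Affymetrix arrays each, 8 in all: c-Jun KO cut, c-Jun KO uncut, WT cut and WT uncut (KO and CTRL in the sample titles). Each array held a pool of nerves of 4 or 6 mice. The labels say adult and name no strain, allele or Cre driver. As background from knowledge of the published study, c-Jun was removed from Schwann cells by a Cre transgene active in that lineage, so other cells of the nerve still carry the gene. The labels call the tissue Schwann cells, but a nerve piece is a mixture. Every tested marker of macrophages, fibroblasts, fat cells, endothelium and skeletal muscle stood at 6.91 or more on every array, above the array medians. In such bulk RNA fewer cells of a type and less RNA per cell cannot be told apart, and this holds for every difference below.

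Cholesterol is made from acetyl-CoA through mevalonate, the isoprenoids, squalene and lanosterol, and fatty acids are made from acetyl-CoA and malonyl-CoA, then lengthened and desaturated. Most of these enzymes are induced by the SREBP transcription factors. When sterols are scarce, SCAP escorts SREBP to the Golgi, where it is cleaved and released, and when sterols are plentiful, INSIG proteins hold the pair in the endoplasmic reticulum. Myelin is unusually rich in cholesterol and in long, saturated fatty acids. Myelinating Schwann cells make much of this lipid themselves, and they stop making myelin when they lose contact with the axon.

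The values are log2 expression values, so a difference of 1 is a 2-fold change. Array medians lay between 6.59 and 6.65. Arrays of the same group correlated across genes with r = 0.984 to 0.989, while pairs of a cut and an uncut array gave 0.854 to 0.894. Jun, the targeted gene, had 10.39 and 10.80 in c-Jun KO cut nerve, against 11.88 and 11.96 in WT cut nerve (log2 fold change -1.33, SE 0.14, limma adjusted p = 0.0087). The sources do not say whether its probe set lies in the deleted part. In uncut nerve Jun had 9.62 and 9.59 in c-Jun KO, against 9.58 and 9.70 in WT.

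At 7 days after the cut, the lipid synthesis genes stood lower in cut than in uncut nerve of both genotypes. A gene was called when its limma p-value, adjusted over all 12094 genes, was under 0.05. In c-Jun KO nerve 29 of the 33 genes fell, none rose and 4 did not pass, where 17.8% of all genes tested fell (36% changed in either direction). In WT nerve 28 fell, none rose and 5 did not pass, where 17.5% of all genes tested fell (40.3% changed in either direction). The median log2 fold change of the 33 genes was -1.80 in c-Jun KO and -1.70 in WT, against medians of -0.0012 and 0.05 over all genes in the same order. Falls of at least 2-fold were called for 24 genes in each genotype (72.7% of the set), where 5.32% of all genes in c-Jun KO and 5.63% in WT fell that far. Falls of at least 4-fold were called for 14 genes in c-Jun KO and 10 in WT, where 1.17% and 1.36% of all genes did so. The genes that fell in both genotypes numbered 27. Dhcr7 and Fads2 passed in c-Jun KO, and Srebf1 in WT, while Mvk, Ebp and Insig2 passed in neither. Cut and uncut arrays did not overlap, with cut lower, for 31 genes in c-Jun KO (35.2% of all genes) and 30 in WT (31.6%). With cut higher this held for 1 gene in c-Jun KO (35.8% of all genes) and 2 in WT (41.5%). The replicate arrays of a group are pools that the design text calls independent.

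Promoter windows show what DNA letters lie in front of the genes of the set, whether or not they fell. RefSeq (GRCm38.p6) gave a window of 250 bases before to 50 bases after the start for 27 of the 34 genes. The 27 include Acat2, which was not analysed on the arrays, and Mvk, Ebp and Insig2, which passed in neither genotype. The 4 windows printed are those of Hmgcs1, of Idi1 and Lss, which fell most among the sterol enzymes, and of Ebp, a sterol enzyme that did not pass. Capitals mark the CCAAT letters of an NF-Y box (ATTGG on the other strand), the GGGCGG letters of a GC box (CCGCCC on the other strand) and the TCACNCCAC core of a sterol regulatory element, the site that SREBP reads. Each line runs 5′ to 3′ in the direction of the gene.
Hmgcs1 (chr13:119690101-119690400, + strand): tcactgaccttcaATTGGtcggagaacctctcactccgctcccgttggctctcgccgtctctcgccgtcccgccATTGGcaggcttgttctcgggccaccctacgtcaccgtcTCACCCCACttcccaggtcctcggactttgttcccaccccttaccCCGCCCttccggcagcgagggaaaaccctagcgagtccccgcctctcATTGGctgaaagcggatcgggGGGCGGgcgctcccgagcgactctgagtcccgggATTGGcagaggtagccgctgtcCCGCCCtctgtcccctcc
Idi1 (chr13:8885356-8885655, + strand): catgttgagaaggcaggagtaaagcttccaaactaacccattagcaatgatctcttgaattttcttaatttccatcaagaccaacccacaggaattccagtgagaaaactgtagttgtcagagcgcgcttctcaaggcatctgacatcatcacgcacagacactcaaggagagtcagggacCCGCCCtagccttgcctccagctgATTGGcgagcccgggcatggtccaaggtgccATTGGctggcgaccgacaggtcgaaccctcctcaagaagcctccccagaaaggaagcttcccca
Lss (chr10:76531355-76531654, + strand): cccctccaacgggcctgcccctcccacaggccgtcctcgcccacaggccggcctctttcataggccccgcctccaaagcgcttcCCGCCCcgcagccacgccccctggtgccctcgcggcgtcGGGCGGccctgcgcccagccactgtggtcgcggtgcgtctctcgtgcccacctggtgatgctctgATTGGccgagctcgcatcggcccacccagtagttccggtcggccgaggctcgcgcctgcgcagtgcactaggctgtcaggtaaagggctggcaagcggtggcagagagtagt
Ebp (chrX:8193463-8193762, - strand): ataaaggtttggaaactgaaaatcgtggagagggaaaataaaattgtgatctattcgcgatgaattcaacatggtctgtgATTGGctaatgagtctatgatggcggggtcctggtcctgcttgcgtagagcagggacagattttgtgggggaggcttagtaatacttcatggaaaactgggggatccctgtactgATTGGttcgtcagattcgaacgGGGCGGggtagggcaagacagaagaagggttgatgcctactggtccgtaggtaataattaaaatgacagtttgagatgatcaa
Hmgcs1 held 4 CCAAT matches, 3 GC box matches and 1 sterol core. Idi1 held 2 CCAAT and 1 GC box match, Lss 1 and 2, and Ebp 2 and 1, none of them with a sterol core. No marked letters overlapped. Searched on both strands, CCAAT was present in 22 of the 27 genes (81.5%), where 41.1% of 27025 genes with a window and 42.3% of the 9730 genes tested here with a window held it. GGGCGG was present in 23 of 27 (85.2%), against 38.2% and 68%. The strict sterol core TCACNCCAC was present in Hmgcs1 alone (3.7%), against 1.44% and 1.36%. The E-box CACGTG, another sequence that SREBP proteins can bind, was in 5 genes (18.5%), against 8.09% and 11.7%. TGAGTCA, the AP-1 site that c-Jun binds with its partners, was in Msmo1, Dhcr7 and Me1 (11.1%), against 5.95% and 4.87%. These are matches of letters and were not tested. Ebp, which did not pass, held as many CCAAT and GC box matches as Idi1.

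Among the early enzymes, from acetyl-CoA to the isoprenoids, the falls were uneven. Hmgcs1, the synthase that makes HMG-CoA, had 10.81 and 10.86 in c-Jun KO cut nerve, against 13.16 and 13.60 in c-Jun KO uncut nerve. The WT values were 10.83 and 10.80 in cut nerve, against 13.38 and 13.55 in uncut nerve. Cut and uncut arrays lay far apart, with log2 fold changes of -2.55 in c-Jun KO and -2.65 in WT (SE 0.15, limma adjusted p = 2.5e-05 and 1.7e-05). Its 4 other probe sets gave -2.03, -2.21, -2.80 and -2.04 in c-Jun KO and -2.19, -2.32, -2.89 and -2.25 in WT.

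The next enzymes phosphorylate and decarboxylate mevalonate. Mvk, mevalonate kinase, changed by -0.25 in c-Jun KO and -0.33 in WT and did not pass (limma adjusted p = 0.16 and 0.069). Its dimmer probe set gave -0.54 and -0.46 (adjusted p = 0.024 and 0.039 among all probe sets), so its 2 probe sets differ in the call and share the sign. Pmvk, phosphomevalonate kinase, fell by 1.49 in c-Jun KO and by 1.48 in WT. Mvd, the decarboxylase, fell by 1.18 in c-Jun KO and by 0.87 in WT. Its second probe set gave -1.11 (adjusted p = 0.0048) and -0.46, of which the WT value did not pass (adjusted p = 0.11).

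Idi1, which isomerises isopentenyl diphosphate, fell more steeply than its neighbours in the pathway. It had 7.78 and 7.70 in c-Jun KO cut nerve, against 10.95 and 11.10 in c-Jun KO uncut nerve. In WT nerve the arrays gave 7.61 and 7.52 in cut nerve, against 10.97 and 11.13 in uncut nerve. This is 9.74-fold in c-Jun KO (log2 fold change -3.28, SE 0.11, limma adjusted p = 2.5e-06) and 11.2-fold in WT (-3.49, adjusted p = 1.8e-06). A second probe set gave -3.36 and -3.63. Counted from the lowest log2 fold change of all 12094 genes, Idi1 had rank 28 in c-Jun KO and 34 in WT. Fdps, which makes farnesyl diphosphate, fell by 2.10 in c-Jun KO and fell by 1.91 in WT. Fdft1, the squalene synthase that commits farnesyl units to sterol, fell by 2.07 in c-Jun KO and fell by 1.90 in WT.

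The squalene to lanosterol steps held the gene with the largest fall of the set. Lss, lanosterol synthase, which closes the sterol rings, had 5.54 and 5.42 in c-Jun KO cut nerve, against 8.75 and 9.04 in c-Jun KO uncut nerve. WT nerve had 5.51 and 5.16 in cut nerve, against 8.87 and 8.90 in uncut nerve. The cut values lie below the array medians, in the dim range where such arrays compress differences. The log2 fold change was -3.42 in c-Jun KO and -3.55 in WT (SE 0.15, limma adjusted p = 8.0e-06 and 4.7e-06), or 10.7-fold and 11.7-fold, at rank 24 and 31 from the lowest. A second kept Lss probe set gave only -0.90 and -0.70 (adjusted p = 0.0061 and 0.015 among all probe sets), so the size of the fall depends on the probe set. Sqle, the squalene epoxidase just before Lss, had 8.01 and 7.91 in c-Jun KO cut nerve, against 10.18 and 10.83 in c-Jun KO uncut nerve, a log2 fold change of -2.55. In WT it had 8.78 and 8.70 in cut nerve, against 10.50 and 10.38 in uncut nerve, a log2 fold change of -1.70. Both falls passed (adjusted p = 7.2e-05 and 0.00042).

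Most enzymes that turn lanosterol into cholesterol also fell. Cyp51, the lanosterol demethylase, had 6.90 and 7.27 in c-Jun KO cut nerve, against 9.25 and 9.67 in c-Jun KO uncut nerve (-2.38). The WT values were 7.02 and 6.98 in cut nerve, against 9.49 and 9.49 in uncut nerve (-2.49). Tm7sf2, a sterol reductase, fell by 2.16 in c-Jun KO and 2.04 in WT. For the 3 enzymes that strip methyl groups from the sterol ring, the log2 fold changes in c-Jun KO and in WT were -2.25 and -2.41 for Msmo1, -1.48 and -1.17 for Nsdhl, and -2.41 and -2.13 for Hsd17b7, all called. Sc5d, a sterol desaturase near the end of the pathway, fell by 2.28 and 2.06, and its 2 other probe sets fell as well.

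The exceptions among the late enzymes were Ebp and Dhcr7. Ebp, the sterol isomerase, had 9.54 and 9.19 in c-Jun KO cut nerve, against 9.48 and 9.56 in c-Jun KO uncut nerve, and the arrays overlapped. In WT nerve the arrays gave 9.54 and 9.46 in cut nerve, against 9.43 and 9.34 in uncut nerve. Its log2 fold changes were -0.15 (95% interval -0.45 to 0.15) in c-Jun KO and 0.11 (-0.19 to 0.42) in WT. Ebp has only 1 probe set, and for it a fall of the size seen in its neighbours lies outside both intervals. The intervals cover the spread between arrays and not a difference between probe sets. Dhcr7, the reductase that yields cholesterol, stood at -0.53 in c-Jun KO (limma adjusted p = 0.045) and -0.49 in WT (adjusted p = 0.054). The c-Jun KO call for Dhcr7 held in 3 of 8 fits with 1 array left out, with an adjusted p of up to 0.23 without c-Jun KO uncut replicate 2. Over the 17 sterol enzymes 15 fell in c-Jun KO and 14 in WT, with medians of -2.16 and -1.91. These are 88.2% and 82.4%, against 17.8% and 17.5% of all genes.

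**Figure D1:**
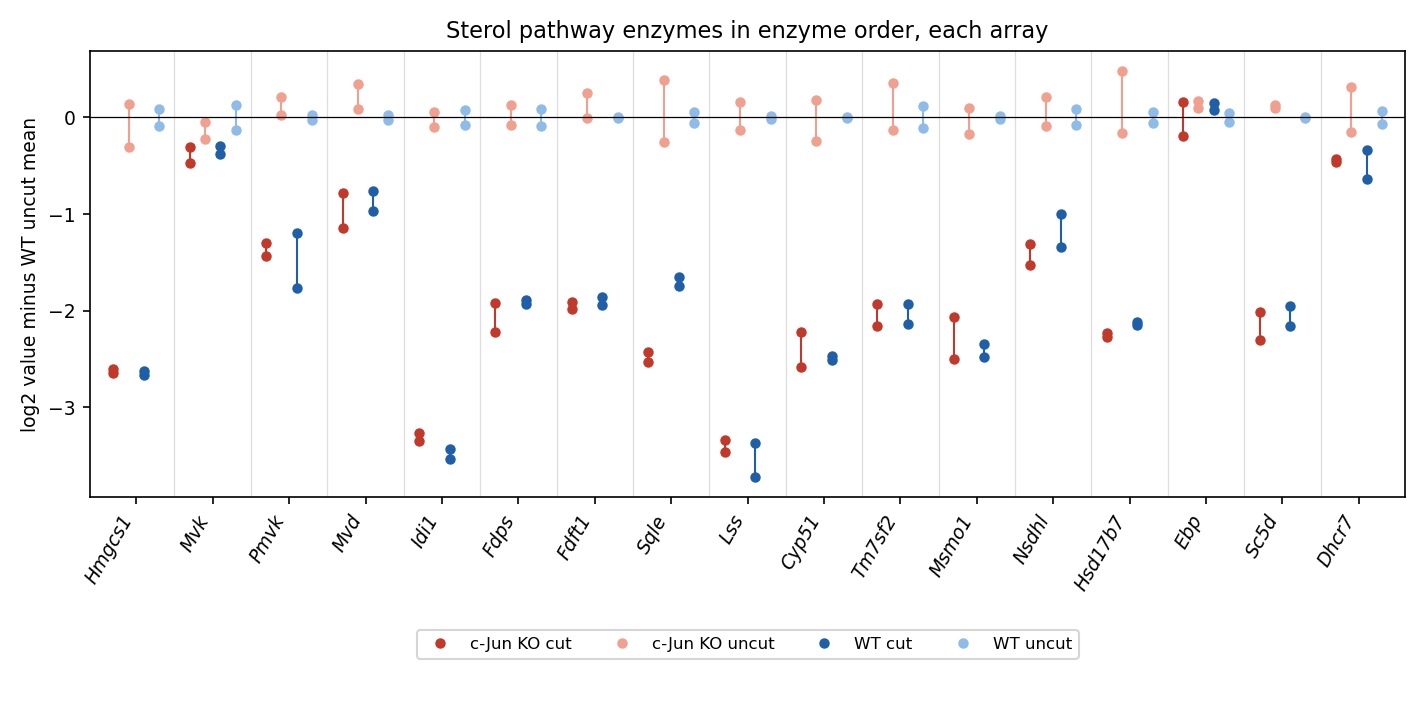
Log2 value of each array minus the mean of the WT uncut arrays (vertical axis) for the 17 measured sterol enzymes in pathway order (horizontal axis). Each point is 1 array and a line joins the 2 arrays of a group. Cut arrays (dark) lie below uncut arrays (pale) for every gene except Ebp, and Sqle is the gene whose c-Jun KO cut arrays lie clearest below the WT cut arrays (log2 difference -0.78).

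The genes that govern the pathway did not move alike. Srebf2, the SREBP that mainly drives sterol genes, fell by 1.58 in c-Jun KO and by 1.25 in WT (limma adjusted p = 0.00026 and 0.00068), and its second probe set fell by 1.46 and 1.38. Scap, the escort protein, fell by 0.57 and 0.54 (adjusted p = 0.010 and 0.011), in c-Jun KO and in WT. Each Scap call held in 6 of 8 fits with 1 array left out. The c-Jun KO call was lost without c-Jun KO cut replicate 2 (adjusted p = 0.056) or uncut replicate 2 (adjusted p = 0.065). The WT call was lost without WT cut replicate 2 (adjusted p = 0.065) or uncut replicate 1 (adjusted p = 0.072). Srebf1, the SREBP that mainly drives fatty acid genes, stood at -0.30 in c-Jun KO (adjusted p = 0.17) and fell by 0.55 in WT (adjusted p = 0.024). The WT call was lost without WT cut replicate 2 (adjusted p = 0.094) or either WT uncut array (adjusted p = 0.074 without replicate 1 and 0.11 without replicate 2).

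The INSIG pair split. Insig1, itself a well known SREBP target, had 7.59 and 7.61 in c-Jun KO cut nerve, against 9.58 and 9.57 in c-Jun KO uncut nerve. WT nerve had 8.09 and 7.61 in cut nerve, against 9.33 and 9.81 in uncut nerve. The arrays did not overlap, and the log2 fold changes were -1.97 and -1.72 (SE 0.19, limma adjusted p = 0.00026 and 0.00042). Insig2, whose product binds SCAP as well, stood at 0.05 in c-Jun KO and 0.19 in WT and did not pass (adjusted p = 0.74 and 0.18), and its 2 other probe sets also had positive values between 0.20 and 0.34 that did not pass. Stard4, a carrier that moves cholesterol between membranes, had 7.81 and 7.69 in c-Jun KO cut nerve, against 9.74 and 9.98 in c-Jun KO uncut nerve (-2.11). In WT it had 7.82 and 7.94 in cut nerve, against 9.65 and 9.999 in uncut nerve (-1.94). Of these 6 genes 4 fell in c-Jun KO and 5 in WT, with medians of -1.07 and -0.90. The shares are 66.7% and 83.3%, against 17.8% and 17.5% of all genes.

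All 10 fatty acid genes fell in c-Jun KO nerve and 9 of 10 in WT nerve, with median log2 fold changes of -1.65 and -1.63. These are 100% and 90%, against 17.8% and 17.5% of all genes. The c-Jun KO count includes Fads2, whose call rests on 1 of its probe sets. Acly and Acss2 supply cytosolic acetyl-CoA, from citrate and from acetate. Acss2 had 7.82 and 7.85 in c-Jun KO cut nerve, against 9.77 and 11.08 in c-Jun KO uncut nerve (-2.59, SE 0.43, limma adjusted p = 0.0033). The WT values were 8.10 and 7.08 in cut nerve, against 10.22 and 10.22 in uncut nerve (-2.63, adjusted p = 0.0025). Its arrays did not overlap, although those of a single group lay up to 1.31 apart. Acly fell by 1.53 in c-Jun KO and by 1.30 in WT (adjusted p = 0.0092 and 0.016). A dimmer kept Acly probe set gave -1.51 and -1.25 (limma adjusted p = 0.0087 and 0.016 among all probe sets). Another kept Acly probe set gave -1.11 in c-Jun KO and -1.21 in WT and did not pass (adjusted p = 0.080 and 0.056). The Acly probe sets thus share the sign and differ in the call in both genotypes. The WT call for Acly was lost without WT cut replicate 2 (adjusted p = 0.091) or either WT uncut array (adjusted p = 0.065 and 0.067).

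Acaca, acetyl-CoA carboxylase, makes malonyl-CoA, and Fasn, fatty acid synthase, builds palmitate from it. Fasn had 11.24 and 11.42 in c-Jun KO cut nerve, against 12.83 and 13.41 in c-Jun KO uncut nerve. In WT nerve the arrays gave 11.75 and 10.10 in cut nerve, against 12.76 and 13.06 in uncut nerve. The groups did not overlap, and the WT cut arrays lay 1.65 apart. The log2 fold change was -1.80 in c-Jun KO (SE 0.47, limma adjusted p = 0.020) and -1.99 in WT (adjusted p = 0.012). For WT it was -1.16 without WT cut replicate 2 and -2.81 without replicate 1. The Fasn call was lost in c-Jun KO without either c-Jun KO cut array (adjusted p = 0.074 without replicate 1 and 0.065 without replicate 2) or uncut replicate 2 (0.11), and in WT without WT uncut replicate 2 (0.065). Acaca fell by 1.67 in c-Jun KO and by 1.64 in WT (adjusted p = 0.012 in each). For Acaca in WT the value was -1.04 without cut replicate 2 and -2.24 without cut replicate 1, and the call was lost without uncut replicate 2 (adjusted p = 0.058). In c-Jun KO it was lost without cut replicate 2 (adjusted p = 0.053) or uncut replicate 2 (adjusted p = 0.074). A dimmer Acaca probe set fell less, by 1.14 in c-Jun KO and by 0.99 in WT (limma adjusted p = 0.0027 and 0.0042 among all probe sets). Me1, the malic enzyme that supplies NADPH for the synthesis, fell by 1.81 in c-Jun KO and 1.87 in WT.

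Elovl6, which lengthens palmitate to stearate, fell most among the fatty acid genes. It had 8.50 and 8.46 in c-Jun KO cut nerve, against 11.23 and 11.79 in c-Jun KO uncut nerve. WT nerve had 8.74 and 7.40 in cut nerve, against 11.28 and 11.25 in uncut nerve. The log2 fold changes of Elovl6 were -3.03 and -3.19 (SE 0.38, limma adjusted p = 0.00086 and 0.00056), or 8.17-fold and 9.14-fold. The WT value was -2.52 without cut replicate 2 and -3.86 without cut replicate 1. For Acss2 the c-Jun KO value was -1.94 without uncut replicate 2 and -3.24 without uncut replicate 1. All these values kept their calls.

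The desaturases were mixed. Scd1 and Scd2 place the double bond of oleate and were the brightest probe sets of the set. The highest value on any array was 14.91, and Scd1 in uncut nerve was at 14.06 to 14.27, near that top. Scd1 fell by 0.92 in c-Jun KO and by 0.99 in WT (limma adjusted p = 0.010 and 0.0063), while its dimmer probe set fell by 1.46 and 1.77. The c-Jun KO call of Scd1 was lost without uncut replicate 2 (adjusted p = 0.060). Scd2 fell by 0.58 in c-Jun KO and by 1.03 in WT (adjusted p = 0.0040 and 0.00022), and its 2 dimmer probe sets fell by 0.90 and 0.86 in c-Jun KO and by 1.48 and 1.59 in WT. Fads1, the desaturase of the later step to arachidonate, fell by 1.63 in each genotype. Its dimmer probe set fell less, by 0.78 in c-Jun KO and by 1.11 in WT. Fads2, the desaturase of the earlier step, had 8.83 and 8.61 in c-Jun KO cut nerve, against 9.01 and 9.20 in c-Jun KO uncut nerve (-0.39, adjusted p = 0.046). In WT it had 9.09 and 8.90 in cut nerve, against 8.97 and 9.06 in uncut nerve (-0.03), where the arrays overlapped. Its other probe sets gave -0.22 and -0.25 in c-Jun KO and did not pass (limma adjusted p = 0.14 and 0.15 among all probe sets). In WT they gave -0.05 and -0.04. Tested among all probe sets, the main Fads2 probe set did not pass in c-Jun KO either (limma adjusted p = 0.056). The c-Jun KO call of Fads2 held in 1 of 8 fits with 1 array left out.

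**Figure D2:**
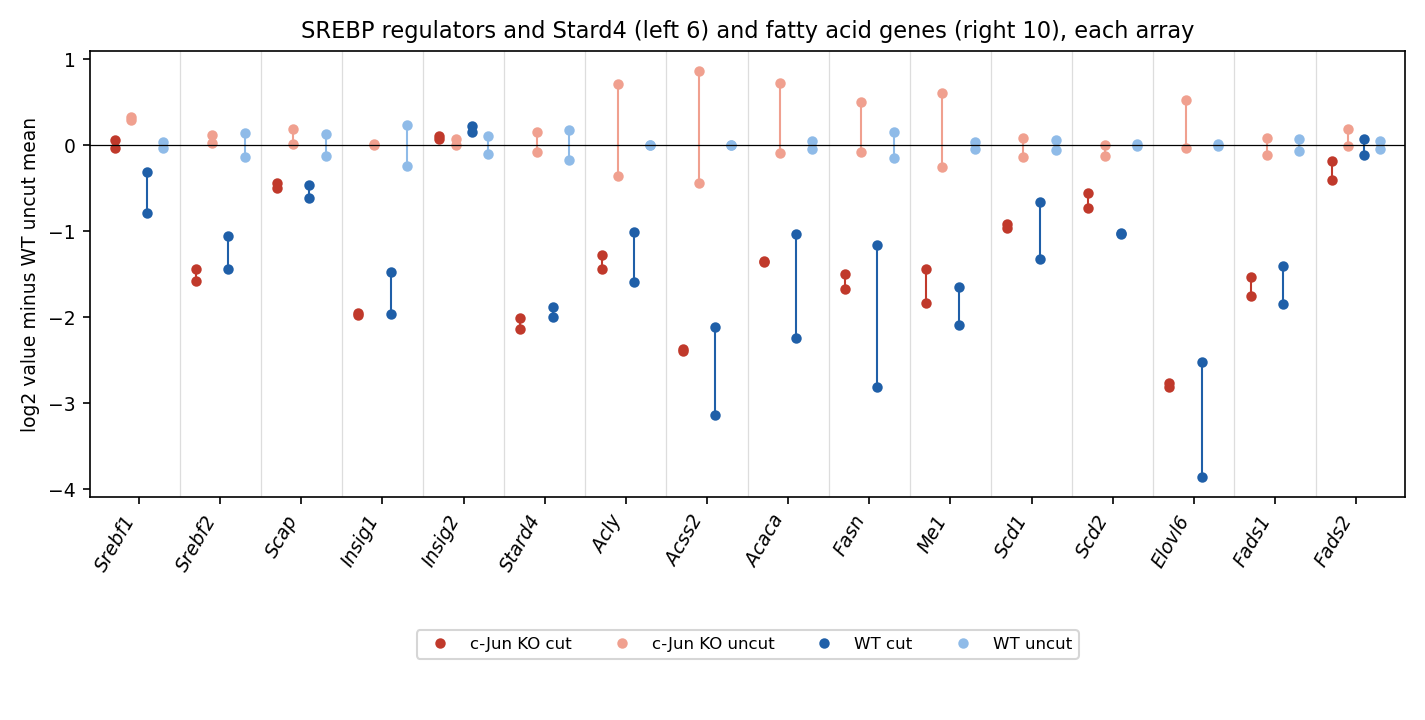
Log2 value of each array minus the mean of the WT uncut arrays (vertical axis) for the 6 regulator and carrier genes and the 10 fatty acid genes (horizontal axis). Each point is 1 array and a line joins the 2 arrays of a group. Insig2 and Fads2 stay near 0 in WT, while long lines for Acly, Acss2, Acaca, Fasn and Elovl6 show the spread within c-Jun KO uncut and WT cut nerve.

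Several fatty acid genes varied more between arrays of a group than the sterol enzymes did. The within-group SD had a median of 0.403 over the 10 fatty acid genes, against 0.176 over the 17 sterol enzymes and 0.124 over all genes tested. It was 0.63 for Fasn, 0.586 for Acss2, 0.515 for Acaca, 0.513 for Elovl6 and 0.435 for Acly, at percentiles 97.2 to 99 of all genes, while Scd2 had 0.0763. The gaps between replicates were widest in c-Jun KO uncut and WT cut nerve. In c-Jun KO uncut nerve replicate 2 was above replicate 1 for 10 of 10 fatty acid genes, by a median of 0.57. In WT cut nerve replicate 2 was below replicate 1 for 10 of 10, by a median of -0.62. In c-Jun KO cut and WT uncut nerve the median gaps were -0.01 and 0.02. With replicate 2 of c-Jun KO uncut and of WT cut nerve left out, these groups hold 1 array each. The median log2 fold changes of the 10 fatty acid genes were then -1.32 in c-Jun KO and -1.10 in WT. Values were below 0 for 10 genes in c-Jun KO and 9 in WT. These arrays were left out because of their gaps, so the values cannot show how firm the falls are.

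Fat cells also express these genes, and their markers were strong in the nerve pieces. Of the 9 listed adipocyte markers 7 were tested, 4 fell after the cut in each genotype (57.1%), and none rose. Of all genes tested 17.8% fell and 18.1% rose in c-Jun KO, and 17.5% fell and 22.8% rose in WT. The mean log2 value of the 7 markers was 10.05 to 10.87 in c-Jun KO cut nerve, against 11.55 to 11.98 in c-Jun KO uncut nerve. In WT it was 10.03 to 10.93 in cut nerve, against 11.39 to 11.88 in uncut nerve. Adipoq, the fat cell hormone adiponectin, had 12.97 and 12.05 in c-Jun KO cut nerve, against 13.90 and 13.53 in c-Jun KO uncut nerve, and 12.97 and 12.33 in WT cut nerve, against 13.88 and 13.61 in WT uncut nerve. Adipoq was thus higher in replicate 1 of all 4 groups, as were Cidec, Lep, Lipe, Fabp4 and Pnpla2. Of the 10 fatty acid genes replicate 2 was the higher for 5 in c-Jun KO cut, 10 in c-Jun KO uncut, 0 in WT cut and 7 in WT uncut nerve. Retn, another fat cell hormone, had 12.62 and 13.12 in c-Jun KO uncut nerve and 11.21 and 9.61 in WT cut nerve. In these groups this is the same order of replicates as Fasn. In c-Jun KO uncut nerve Retn was the only 1 of the 7 tested markers with that order, while in WT cut nerve all 7 had it. The part of fat cells in the falls of the fatty acid genes was not tested.

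**Figure D3:**
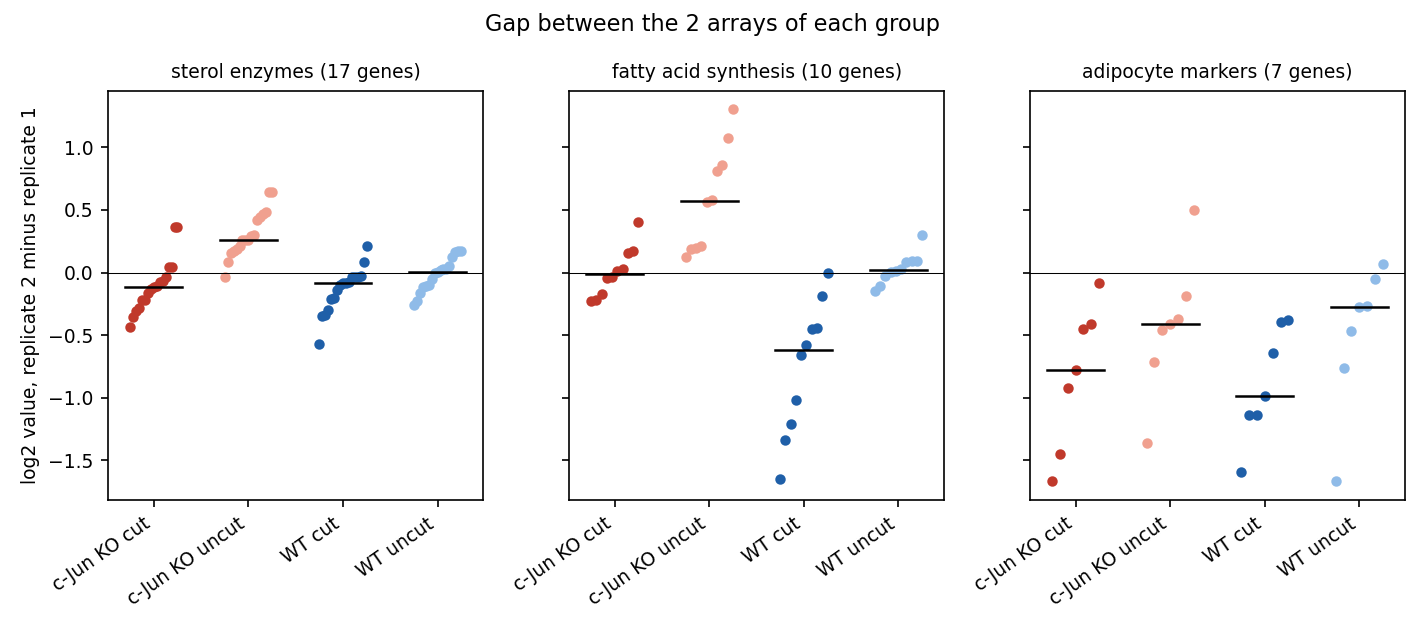
Log2 value of replicate 2 minus that of replicate 1 (vertical axis) in each of the 4 groups (horizontal axis), for sterol enzymes, fatty acid genes and adipocyte markers. Each point is a gene and the bar is the median: the fatty acid genes sit at 0.57 in c-Jun KO uncut nerve and at -0.62 in WT cut nerve, while the adipocyte medians are below 0 in all 4 groups.

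The injury effects of the 33 genes in c-Jun KO and in WT nerve, which rest on different arrays, were close to each other. Across the 33 genes, which are not independent replicates, they correlated with Pearson r = 0.968 and Spearman rho = 0.965. Neither these correlations nor the differences below were computed over all genes, so the closeness is not shown to be particular to the set. The absolute difference between the effects had a median of 0.165 and was under 0.35 for 30 genes. The exceptions were Sqle, which stood 0.85 lower in c-Jun KO, Scd2, which stood 0.45 higher, and Fads2, which stood 0.36 lower. None of the 33 passed the test of the difference itself, the genotype by injury interaction, where 0.165% of all genes tested passed (0.0661% higher and 0.0992% lower). Sqle had an interaction of -0.85 (SE 0.27, limma adjusted p = 0.52), and Scd2 of 0.45 (SE 0.14, adjusted p = 0.52). At an unadjusted p under 0.05 there were 2 of 33 genes (6.06%), against 6.04% of all genes.

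**Figure D4:**
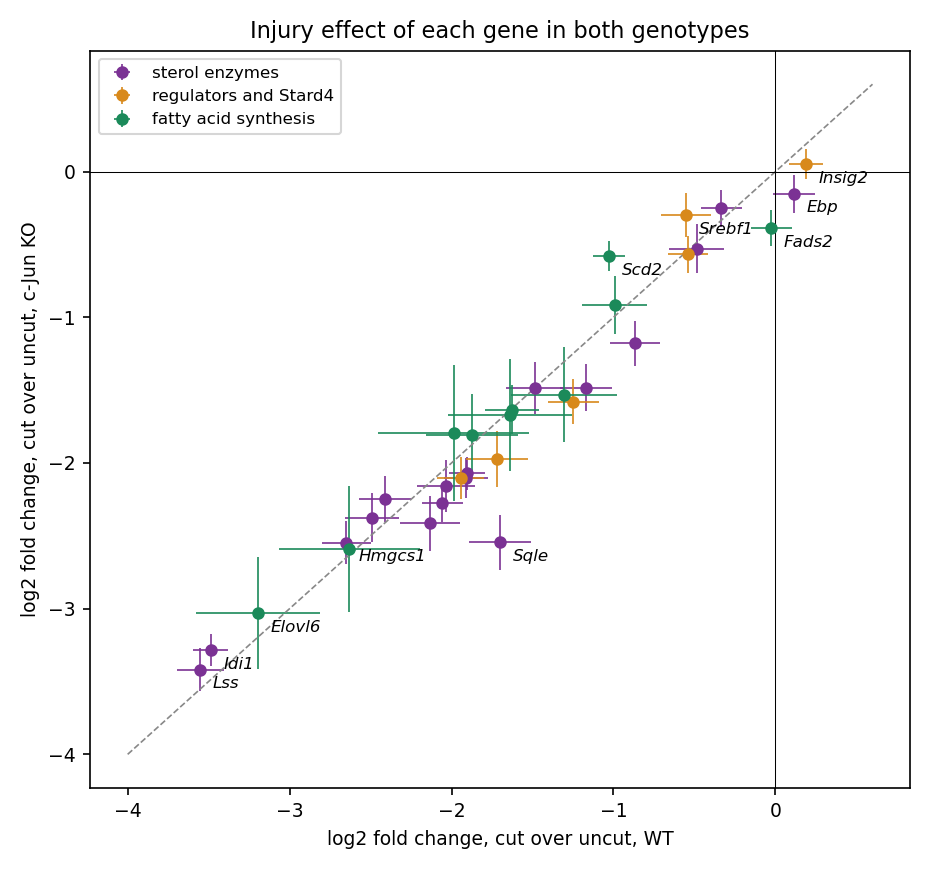
Log2 fold change of cut over uncut nerve in WT (horizontal axis) and in c-Jun KO (vertical axis) for the 33 genes, with standard errors as bars and equal effects as the dashed line. Most genes lie on the line, from Lss (-3.42 in c-Jun KO and -3.55 in WT) to Insig2 (0.05 and 0.19). Sqle lies below it and Scd2 above it.

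The study asks which genes of the cut nerve depend on c-Jun, and for lipid synthesis the direct comparison of c-Jun KO with WT cut nerve gave no calls. None of the 33 genes passed, where 1.09% of all genes tested did (132 genes, 0.38% higher and 0.711% lower in c-Jun KO). At an unadjusted p under 0.05 limma gave 3 genes (9.09%), against 8.61% of all genes. The arrays of the genotypes did not overlap for 8 genes, 3 of them higher in c-Jun KO (9.09%, against 14.5% of all genes) and 5 lower (15.2%, against 20.1%). The median log2 fold change was -0.01 over the set and -0.01 over all genes, and that of the set was -0.13 without WT cut replicate 2 and 0.10 without WT cut replicate 1. The 95% interval lay within 1 on the log2 scale on either side of 0 for 28 genes. The 5 others were Sqle, Acss2, Acaca, Fasn and Elovl6, with bounds between -1.23 and 1.49, and for these the interval includes a 2-fold difference.

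The 3 genes with an unadjusted p under 0.05 are described because of that value, chosen after it was seen. Sqle had 8.01 and 7.91 in c-Jun KO cut nerve, against 8.78 and 8.70 in WT cut nerve, with no overlap (log2 fold change -0.78, SE 0.19, limma adjusted p = 0.17). Its neighbours in the pathway, Fdft1 and Lss, stood at -0.05 and 0.15. The Sqle call appeared when either c-Jun KO uncut array was left out (adjusted p = 0.034 for each), while its value stayed at -0.78. Over all alternatives its adjusted p ranged between 0.034 and 0.53. Scd2 had 13.34 and 13.17 in c-Jun KO cut nerve, against 12.87 and 12.87 in WT cut nerve (0.38, SE 0.10, adjusted p = 0.21). Its other probe sets were also higher in c-Jun KO cut nerve, with 11.99 and 11.68, against 11.21 and 11.44 in WT, and with 9.99 and 9.87, against 8.87 and 9.65 in WT. Srebf1 had 10.69 and 10.60 in c-Jun KO cut nerve, against 10.33 and 9.84 in WT cut nerve (0.56, SE 0.15, adjusted p = 0.23). In uncut nerve Srebf1 had 10.96 and 10.93 in c-Jun KO, against 10.60 and 10.67 in WT (0.31, adjusted p = 0.9997), also with no overlap.

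In uncut nerve none of the 33 genes passed for genotype, where 0% of all genes tested did. At an unadjusted p under 0.05 limma gave none of the 33, against 322 of all genes (2.66%). The log2 fold changes of c-Jun KO over WT ran from -0.14 for Mvk to 0.32 for Acaca. The 95% interval lay within 1 of 0 for 29 genes, the exceptions being Acss2, Acaca, Fasn and Elovl6. Positive values were found for 25 of 33 genes, against 7399 of 12094 genes tested, with a median of 0.08 over the set and 0.03 over all genes. The median of the set was -0.09 without c-Jun KO uncut replicate 2 and 0.18 without c-Jun KO uncut replicate 1, so its sign rests on 1 array. For 5 genes (Pmvk, Mvd, Ebp, Sc5d and Srebf1) both c-Jun KO arrays were above both WT arrays (15.2%, against 17.9% of all genes), and for none were they below (0%, against 9.25%).

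**Figure D5:**
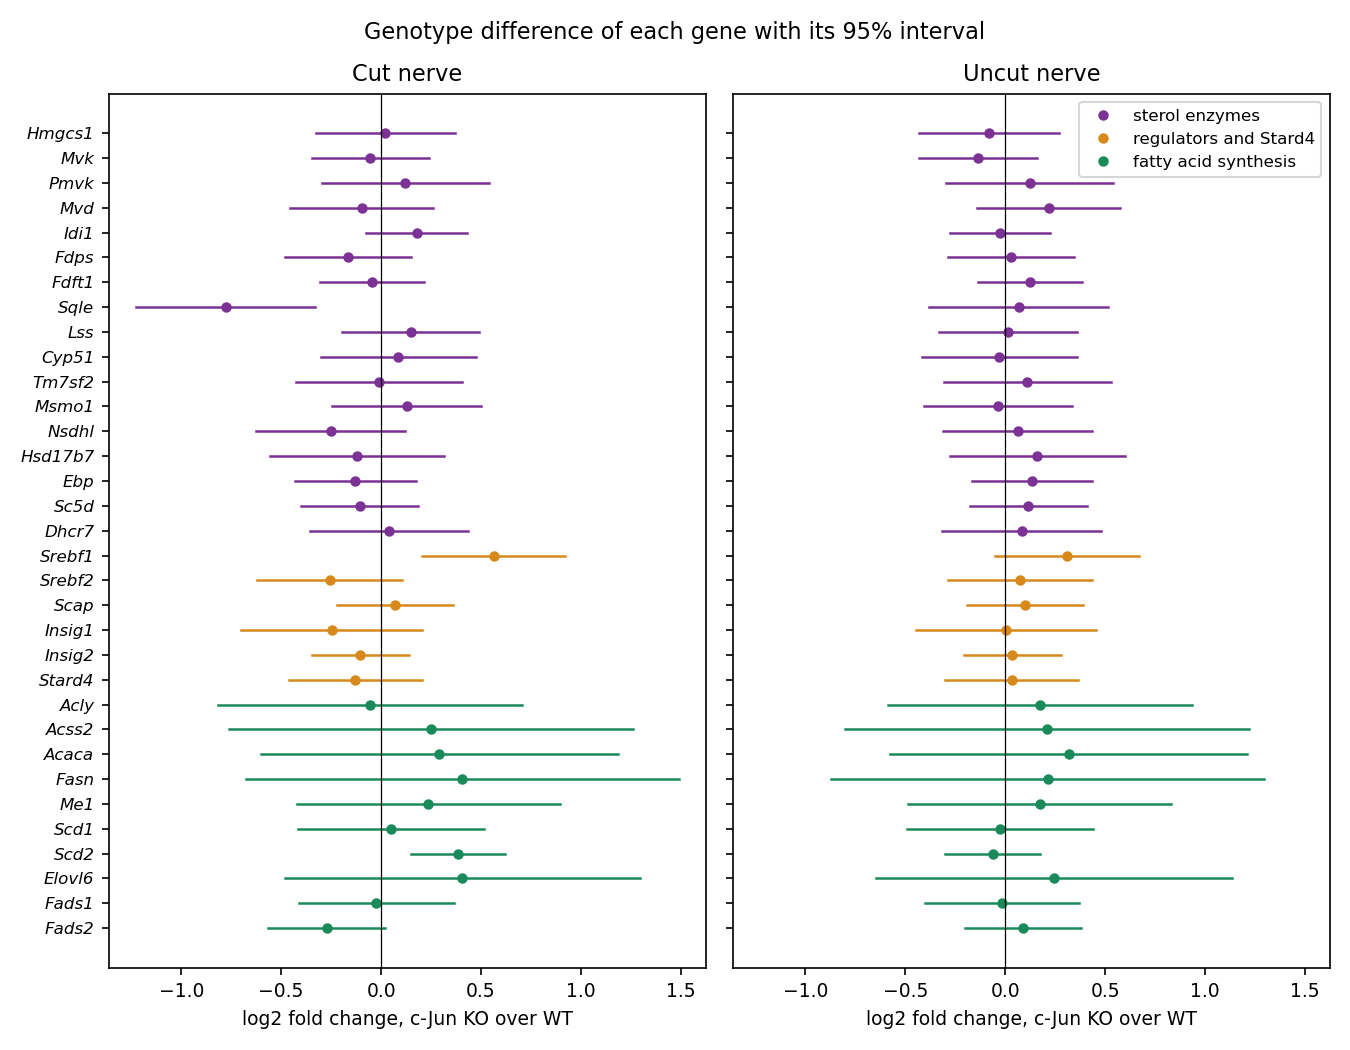
Log2 fold change of c-Jun KO over WT (horizontal axis) with its 95% interval from limma for each of the 33 genes (rows), in cut nerve (left) and uncut nerve (right). In cut nerve the intervals of Sqle (-1.23 to -0.33), Srebf1 (0.20 to 0.92) and Scd2 (0.15 to 0.62) leave out 0 before adjustment. The intervals of Acss2, Acaca, Fasn and Elovl6 are wide in both panels.

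Genes next to these pathways were read from lists. Of 7 other genes of sterol synthesis and SREBP control 1 rose and none fell in c-Jun KO (14.3% and 0%), and 2 rose and 1 fell in WT (28.6% and 14.3%). Over all genes 18.1% rose and 17.8% fell in c-Jun KO, and 22.8% rose and 17.5% fell in WT. Cyb5r3, a cytochrome b5 reductase that feeds electrons to lipid desaturation, rose by 0.44 in c-Jun KO and 0.56 in WT, and the SREBP proteases Mbtps1 and Mbtps2 did not pass. In WT nerve Erlin2, an endoplasmic reticulum protein that binds the SREBP machinery, was called at 0.42 and Ggps1, a prenyl synthase, at -0.31. Of 20 other genes of fatty acid activation, lengthening and supply 4 rose and 11 fell in c-Jun KO (20% and 55%), and 5 rose and 10 fell in WT (25% and 50%). The called log2 fold changes in c-Jun KO and in WT were -3.39 and -3.57 for Elovl4, which makes very long chains, -2.56 and -3.27 for the elongase Elovl7, and -1.88 and -1.49 for Slc25a1, the citrate exporter of mitochondria. Acsl6, an acyl-CoA synthetase, rose by 3.32 and 3.29, with 9.02 and 10.30 in c-Jun KO cut nerve and 8.93 and 10.30 in WT cut nerve. Hacd1, a dehydratase best known from muscle, rose by 0.97 and 0.87, and the synthetase Acsl4 rose by 0.78 and 0.90. The 6 skeletal muscle markers had mean log2 values of 13.51 to 14.07 in c-Jun KO cut nerve, 11.75 to 12.53 in c-Jun KO uncut nerve, 13.37 to 13.60 in WT cut nerve and 11.57 to 12.50 in WT uncut nerve, and their part in these rises was not tested.

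Among genes of cholesterol uptake, storage and export more were called higher than lower. Of 18 tested 9 rose and 1 fell in c-Jun KO (50% and 5.56%, against 18.1% and 17.8% of all genes). In WT 8 rose and 3 fell (44.4% and 16.7%, against 22.8% and 17.5%). Abca1, the pump that exports cholesterol to lipoproteins, had 13.63 and 13.75 in c-Jun KO cut nerve, against 11.66 and 11.35 in c-Jun KO uncut nerve (2.18, SE 0.13, limma adjusted p = 2.5e-05). The WT values were 13.36 and 13.49 in cut nerve, against 11.67 and 11.53 in uncut nerve (1.83, adjusted p = 4.5e-05). Lipa, the lysosomal lipase that frees cholesterol from its esters, rose by 1.24 in c-Jun KO and 1.33 in WT. Nr1h3, the sterol sensor LXR alpha, fell by 0.59 in each genotype, and Cyp27a1, a sterol hydroxylase, fell by 0.71 in WT. Between genotypes in cut nerve only 1 gene of this list was called, higher in c-Jun KO (5.56%, against 0.38% of all genes). This was Mylip, the ubiquitin ligase that LXR induces to remove lipoprotein receptors. It had 11.84 and 11.66 in c-Jun KO cut nerve, against 10.94 and 11.15 in WT cut nerve (0.70, SE 0.11, adjusted p = 0.036). Its values under the other settings are not given here. Of 14 genes of fatty acid oxidation 3 rose and 4 fell in c-Jun KO (21.4% and 28.6%), and 2 rose and 4 fell in WT (14.3% and 28.6%), shares not far from those over all genes. In this list Cpt1c and Cpt1a, carnitine acyltransferases, rose and Ehhadh, a peroxisomal enzyme, and Ppara, a fatty acid sensing receptor, fell. The log2 fold changes in c-Jun KO and in WT were 0.67 and 0.82 for Cpt1c, 0.56 and 0.62 for Cpt1a, -1.29 and -0.98 for Ehhadh, and -1.11 and -1.17 for Ppara.

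Cell markers moved with the same cut. Of all genes tested 18.1% rose and 17.8% fell in c-Jun KO, and 22.8% rose and 17.5% fell in WT. All 12 tested myelin genes fell in each genotype, with medians of -3.31 in c-Jun KO and -3.45 in WT. Of 11 macrophage markers 10 rose in c-Jun KO and 11 in WT, and their mean log2 value was 11.39 to 11.63 in c-Jun KO cut nerve, 9.56 to 9.89 in c-Jun KO uncut nerve, 11.52 to 11.61 in WT cut nerve and 9.51 to 9.77 in WT uncut nerve. Of 7 Schwann lineage markers 3 rose and 3 fell in c-Jun KO (42.9% each), and 2 rose and 3 fell in WT (28.6% and 42.9%). Their log2 fold changes went down to -1.93 in c-Jun KO and -3.77 in WT (both Gpr37l1). The mean log2 value of the 7 was 10.46 to 10.68 in c-Jun KO cut nerve, against 10.77 to 11.05 in c-Jun KO uncut nerve. In WT it was 10.38 to 10.39 in cut nerve, against 11.05 to 11.07 in uncut nerve. This mean, which includes Gpr37l1, lay lower in cut nerve without overlap. The median log2 fold change of the 7 was -0.19 in c-Jun KO and -0.04 in WT, with 3 values above 0 and 4 below in each genotype. Sox10, the transcription factor that defines the lineage, had 10.90 and 10.77 in c-Jun KO cut nerve, against 10.75 and 11.30 in c-Jun KO uncut nerve, and 11.10 and 10.96 in WT cut nerve, against 10.98 and 11.16 in WT uncut nerve. The Sox10 arrays of cut and uncut nerve overlapped in each genotype, with log2 fold changes of -0.19 and -0.04. The part of cell makeup in the falls of the lipid genes was not tested.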

How the data were processed

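RNA of nerve pieces was measured on 8 1-colour Affymetrix arrays. The authors deposited a log2 value for each probe set on each array, made with RMA and the package affy, per the submitters' processing notes. No version, scan date or build was found in these notes or the labels. RMA equalises arrays and compresses differences of dim probe sets. Values were used as deposited. The number of arrays limits the precision.

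Of 45101 probe sets 34958 have 1 gene symbol in the platform annotation, 932 several and 9211 none. Of those with 1 symbol 34754 matched a current gene table by gene number, and 0 symbols changed. Probe sets above the array median on at least 2 arrays were kept (24220, of which 20953 have 1 symbol), and the kept probe set with the highest mean stood for each of 12094 genes. Group means of the 4 groups were estimated jointly from the 8 arrays with limma 3.58.1 in R 4.3.3 (4 residual and 3.59 prior degrees of freedom), with Benjamini-Hochberg adjustment over all genes, two-sided. Simulated data with 12094 genes gave back, for genotype in cut nerve, 18% of the genes shifted by a log2 value of 0.5, 90% at 1, 98% at 2 and 100% at 3. The shifted genes were drawn at random from all genes tested, whose within-group SD had a median of 0.124. That median was 0.176 for the sterol enzymes and 0.403 for the fatty acid genes, so these shares do not carry over to the set.

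Members, lists and tests were chosen with earlier results of these data known. Genes given with every array are the largest called injury effects of each role in WT (4 sterol, 3 fatty acid and 2 regulator genes) and, chosen after their values were seen, Sqle, Ebp, Fads2, Scd2 and Srebf1. From each further list up to 2 called genes of largest change in either direction were named. Slc25a1, Mylip, Mbtps1, Mbtps2, the markers Adipoq, Cidec, Lep, Retn, Sox10 and Gpr37l1, and the promoters of Idi1, Lss and Ebp were chosen after their values were seen.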

Additional observations from a re-analysis of the deposited data

How the results depend on the processing

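Results were recomputed with no filter, a stricter filter (75th percentile, 31 of the 33 genes tested), averaged probe sets, each probe set tested singly, arrays centred on their median, a further quantile normalization, a trended and robust variance, array weights, at least 2-fold change, only the 4 arrays compared, the replicate number as a block, each array left out in turn and, chosen after seeing the data, without c-Jun KO uncut replicate 2 and WT cut replicate 2. Of 1195 recomputed values of the called injury effects 1142 kept their direction and call, 53 lost the call and 0 changed direction. Genotype effects near 0 did change sign: Sqle in uncut nerve lay between -0.26 and 0.39 and the Srebf1 interaction between -0.0061 and 0.50. The counts of genes that fell stayed within 1.5 times of 29 in c-Jun KO and 28 in WT under every alternative, and 0 rose. With the replicate block the counts were 29 and 28, and with a block of replicate number within genotype 28 and 28. The gaps between replicates of any pair of groups correlated across genes with r = 0.0226 to 0.34, and the labels do not say that numbers pair arrays. The number of genes called for genotype in cut nerve was 0 to 1 with 1 array left out (Sqle, without either c-Jun KO uncut array), because an array outside the comparison changes the shared estimate of the spread. With a trended and robust variance Fasn in c-Jun KO did not pass (adjusted p = 0.058). Over all genes, 132 were called for genotype in cut nerve, against 67 at 2-fold, 31 with only the 4 arrays compared, 13 to 111 with 1 array left out and 6 without both arrays. Other settings gave more calls for genotype in cut nerve. These were 174 with the replicate block, 161 with a trended and robust variance, 155 with averaged probe sets, 147 with no filter and 143 with the further quantile normalization. For injury the replicate block gave the most calls, 4980 in c-Jun KO and 5544 in WT. For genotype in uncut nerve 0 were called, against at most 9 (only the 4 arrays compared). For the interaction 20 were called, against 33 with no filter or with averaged probe sets, 31 with trended variance, 11 with the stricter filter, 9 with the block within genotype, 0 to 45 with 1 array left out and 1 without both arrays. For injury 4348 in c-Jun KO and 4879 in WT were called, against 1370 and 1511 at 2-fold, 2734 to 4260 and 3388 to 4715 with 1 array left out, and 2679 and 3245 without both arrays.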
